A study of Homo sapiens with 6 samples.

Results

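ChIP-seq, the sequencing of DNA recovered with an antibody from cross-linked chromatin, was used to follow the kinase CDK2 and the poly(ADP-ribose) polymerase PARP1 over a run of keratin genes on chromosome 17 during the first minutes of progestin exposure. The region holds the epithelial type I keratin genes KRT13, KRT15, KRT19, KRT14, KRT16 and KRT17. It was chosen by position around a window whose PARP1 reads were known to be higher at 30 min than at 0 min. Its members are all 10 kb windows of chromosome 17 that begin between 39650001 and 39790001 in hg19 (1-based), which gave 15 of the 303641 windows in the table. All 15 passed the minimum of a mean of 10 reads over the 6 libraries, as did 278395 windows in all, called compared windows below. The 85 windows from 38800001 to 39650000, which cover the rest of the keratin cluster, served as the comparison.

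The cells were T47D-MTVL, a derivative of the T47D breast cancer line that carries an integrated reporter under a mouse mammary tumour virus promoter. All cells were kept in charcoal-treated serum and then without serum. Both antibodies were used on cells exposed to 10 nM R5020, a synthetic progestin, for 5 min or 30 min, and on cells at 0 min, which received no hormone. Each antibody and time had 1 library, with totals from 40097131 reads for CDK2 at 30 min to 63448449 reads for PARP1 at 30 min.

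No condition was repeated, so no value has an error between replicates and nothing was tested. A level is given as RPM, the reads of a window per 1000000 reads of its library. A ratio compares 2 libraries, each scaled by its total, and carries a 95% interval, called the widened interval, for which the counts were first divided by a dispersion. The dispersion is the spread of single windows around their neighbours relative to counting error. It leaves out shifts that neighbouring windows share, so the widened interval of a sum of adjacent windows does not cover them and can be too narrow. The dispersion was 4.75 for PARP1 at 30 over 0 min and 6.41 at 5 over 0 min, against 14.4 and 24.5 for CDK2, so the CDK2 values are the less certain ones. An input library was not analysed here, so a level in a window also holds DNA copy number and how well reads could be placed. More bound cells and more protein bound per cell cannot be told apart.

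Type I keratins are the acidic partners in the keratin filaments of epithelial cells, each paired with a basic type II keratin. Simple and luminal epithelia make KRT19. In stratified epithelia, KRT14 and KRT15 belong to the basal layer and KRT13 to the upper layers of moist linings such as the oesophagus. KRT16 and KRT17 are known for their induction in wounded or stressed epidermis. PARP1 attaches ADP-ribose chains to chromatin proteins, and CDK2 is the cyclin-dependent kinase that the study placed upstream of it.

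By RefSeq (GRCh38.p14), the genes follow each other along the chromosome as KRT36, KRT13, KRT15, KRT19, LINC00974, KRT9, KRT14, KRT16, KRT17 and the pseudogene KRT42P. Left out of this list are MIR6510, inside KRT15, and the noncoding RNA gene LOC124904003, between KRT14 and KRT16. KRT36 is the hair keratin gene next to the region, and KRT9, a keratin of palms and soles, lies within the run although the rule does not list it. The gene table is of another build than the read counts, so no window was assigned to a gene. By this order the windows that begin at 39650001 and after lie at the KRT13 end, and the last ones at the KRT17 end. The table lists 6 pseudogenes named after KRT16 and 7 named after KRT17 on chromosome 17. The sources used here do not say how reads with several matches were treated, so the windows at the KRT17 end are the ones whose counts are uncertain for that reason.

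Of the genes between KRT13 and KRT17, RefSeq sequences were at hand for the promoter of KRT9 and for the microRNA gene MIR6510, which lies inside KRT15. The KRT9 promoter is shown because a progestin acts through a receptor that binds AGAACA or its reverse complement TGTTCT. It runs from 250 bases before to 50 bases after the gene start, at chr17:41572010-41572309 on the minus strand of GRCh38.p14, with AGAACA in capitals, 72 bases before the start. The mature microRNAs, from chr17:41517194-41517215 for the 5p arm and chr17:41517166-41517186 for the 3p arm (minus strand), have their seeds, bases 2 to 8, in capitals.
KRT9 promoter: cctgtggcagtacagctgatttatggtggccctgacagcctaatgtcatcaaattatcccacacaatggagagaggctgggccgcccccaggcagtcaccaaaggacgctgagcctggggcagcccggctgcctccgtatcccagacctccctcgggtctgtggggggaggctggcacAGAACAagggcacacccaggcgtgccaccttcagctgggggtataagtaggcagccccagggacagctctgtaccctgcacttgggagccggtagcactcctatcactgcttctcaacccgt
hsa-miR-6510-5p: cAGCAGGGgagagagaggaguc
hsa-miR-6510-3p: cACCGACUcugucuccugcag

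AGAACA, searched on both strands, was in the promoters of 3 of the other 20 type I keratin genes with a sequence, KRT9 among them, and in 14.8% of all 35116 promoters of the same length. The paired element, AGAACA and TGTTCT with 3 bases between them, was in 0 of these 20 and in 1 promoter of all. TATAAA, a form of the TATA box of core promoters, was in 15 of the 20 and in 11.5% of all promoters. The KRT9 promoter held no exact TATAAA. Other forms were not searched, and its printed sequence does hold tataag. These matches are letters in a window of 300 bases and say nothing of binding.

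Before hormone, the highest level of either antibody was in a window at the KRT13 end and the lowest in a window toward KRT17. PARP1 at 0 min ran from 1.85 RPM in the window 39760001 to 39770000 to 6.47 in the window 39660001 to 39670000. Its fall was not even, with 6.13 RPM at 39710001 to 39720000 in the middle of the run. CDK2 at 0 min ran from 2.00 RPM at 39770001 to 39780000 to 7.51 at 39670001 to 39680000. The median compared window held 3.26 RPM for PARP1 and 3.30 for CDK2, and 10 of the 15 keratin windows lay above it for either antibody. Across the 15 windows the Spearman correlation of the CDK2 and PARP1 levels at 0 min was 0.679, against 0.535 over the 85 other keratin cluster windows and 0.855 over all compared windows. These are descriptions over neighbouring windows, which share base composition, copy number and, within a library, depth.

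**Figure D1:**
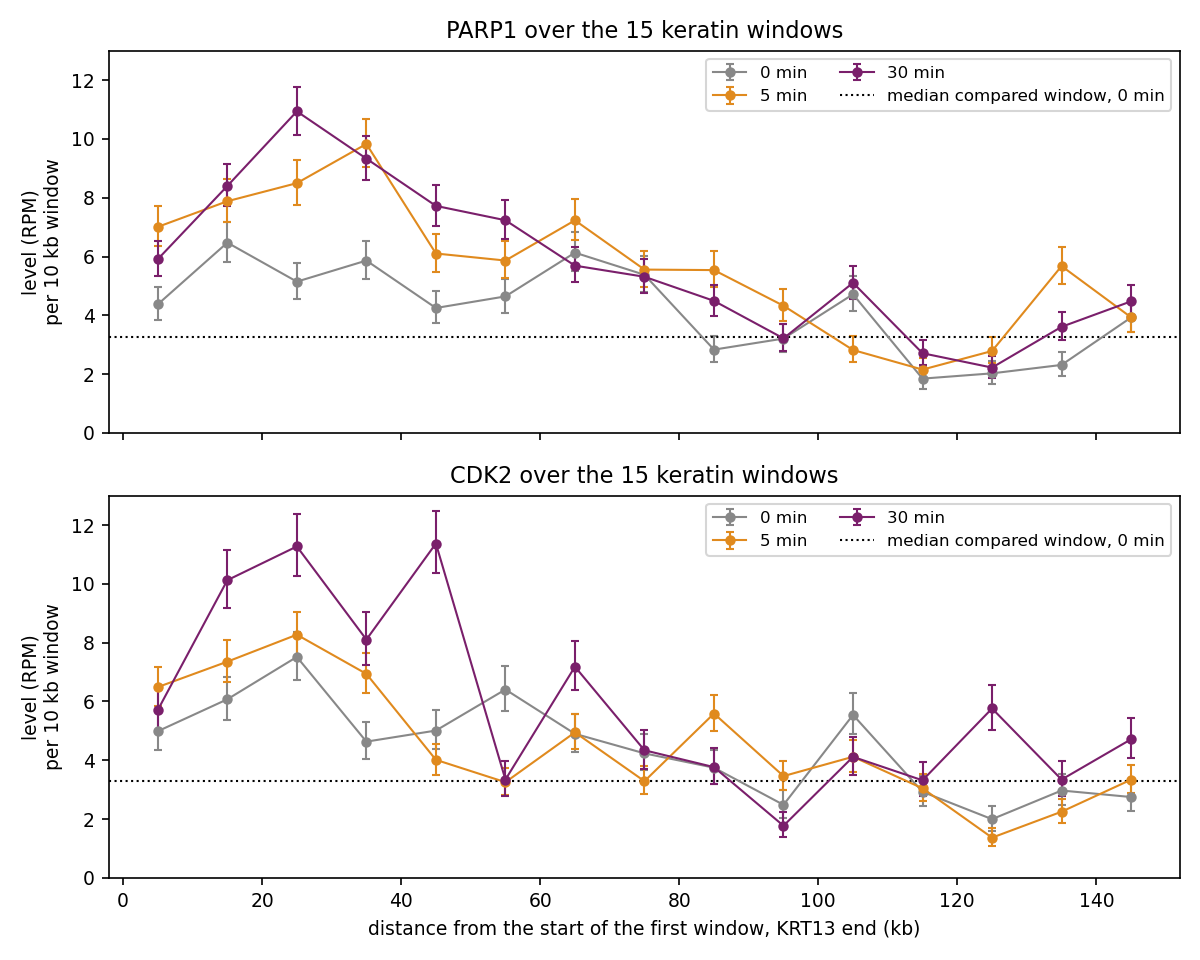
RPM per 10 kb window along the 15 keratin windows, PARP1 above and CDK2 below, with lines for 0, 5 and 30 min. Bars are exact Poisson 95% intervals, which cover counting error only, and the dotted line is the median compared window at 0 min. PARP1 at 30 min peaks at 10.9 RPM in the third window, where 0 min has 5.15, and at 0 min both antibodies are lowest toward the KRT17 end.

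PARP1 held a larger share of its reads over the keratin windows after hormone. The 15 windows together held 63.1 RPM at 0 min (exact Poisson 95% interval 61.1 to 65.3, counting error only), 85.2 at 5 min (82.9 to 87.6) and 86.4 at 30 min (84.1 to 88.7). The ratio to 0 min was 1.35 at 5 min (widened interval 1.21 to 1.51) and 1.37 at 30 min (1.246 to 1.502). The other keratin cluster windows had 1.07 (1.03 to 1.12) and 1.11 (1.07 to 1.15). The keratin sum includes the window 39670001 to 39680000, around which the region was chosen for its PARP1 reads at 30 min, so these values describe that choice. Without it the ratio at 30 min was 1.301. All of chromosome 17 had 1.09 at 5 min and 1.06 at 30 min. Both keratin ratios rest on the same 0 min library. The sum over the 85 windows does not show those next to the region. Among these, the adjoining window 39640001 to 39650000 had PARP1 ratios of 1.17 (0.788 to 1.74) and 1.41 (1.02 to 1.94). The larger ratio is therefore not shown to be particular to the keratin windows. Between 30 and 5 min the keratin windows had a ratio of 1.01 (0.917 to 1.12).

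CDK2 over the same windows was close to its level before hormone at 5 min and higher at 30 min. Its sum was 66.2 RPM at 0 min (63.8 to 68.6), 67.7 at 5 min (65.6 to 69.9) and 88.2 at 30 min (85.4 to 91.2). The ratio to 0 min was 1.02 at 5 min (widened interval 0.803 to 1.31) and 1.33 at 30 min (1.10 to 1.61). In the rest of the cluster it was 0.960 (0.875 to 1.05) at 5 min and 0.993 (0.919 to 1.07) at 30 min, while all of chromosome 17 had 0.972 and 1.12. In the adjoining window 39640001 to 39650000, part of that rest, it was 0.614 (0.171 to 2.09) and 1.67 (0.779 to 3.71). The interval of the keratin sum at 5 min includes no difference, and the difference between the antibodies was not tested. Between 30 and 5 min the CDK2 ratio was 1.30 (0.990 to 1.71).

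By their means, the keratin windows were below the rest of the cluster before hormone and about level with it at 30 min. By their medians they were below it at all times. The mean keratin window held 0.794, 0.998 and 0.978 times the mean of the other cluster windows for PARP1 at 0, 5 and 30 min. For CDK2 it held 0.825, 0.879 and 1.11 times that mean. The median keratin window held 4.37, 5.68 and 5.31 RPM for PARP1, against 5.56, 5.83 and 6.10 in the other cluster windows. For CDK2 the medians were 4.63, 4.01 and 4.71 RPM against 5.59, 4.95 and 5.16. The highest keratin window lay below the highest of the other cluster windows for PARP1 at 0 min, with 6.47 against 7.39 RPM. At 5 min 1 keratin window and at 30 min 2 keratin windows exceeded all 85, with 9.83 against 8.58 and 10.9 against 8.73 as the highest values. The highest at 30 min is the window that guided the choice of region, so its place describes that choice. For CDK2 no keratin window exceeded the highest of the 85 at 0, 5 or 30 min.

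**Figure D2:**
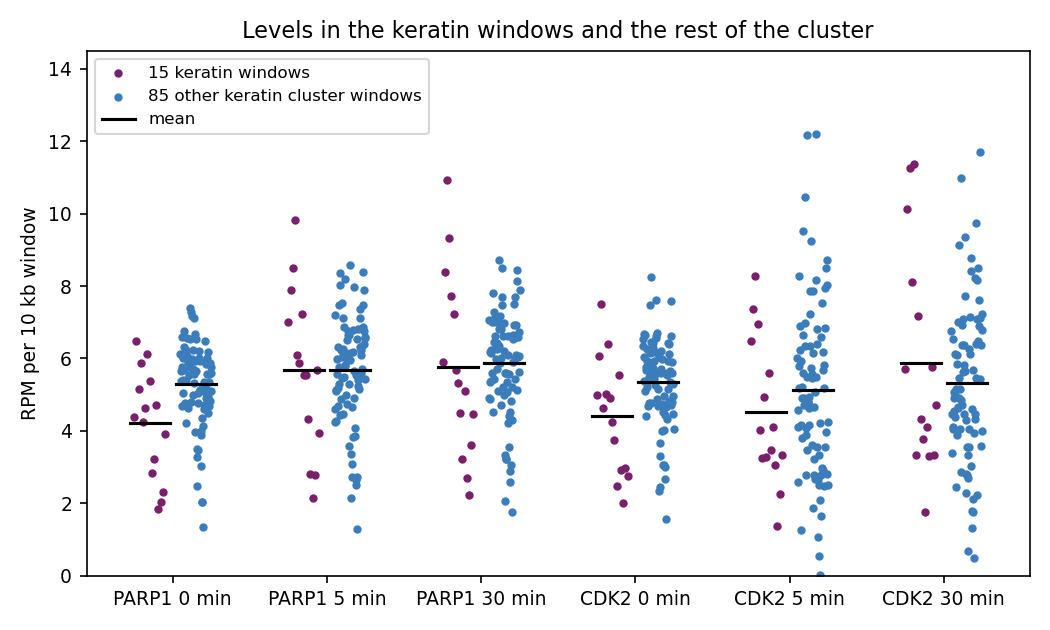
RPM of each 10 kb window in the 6 libraries, for the 15 keratin windows and the 85 other keratin cluster windows, with black bars for the means. The keratin mean lies at 0.794 of the other mean for PARP1 at 0 min and at 0.978 at 30 min, and the CDK2 libraries of 5 and 30 min spread more widely than those of 0 min.

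The window 39670001 to 39680000 held the most reads over the 6 libraries, 2747. At 0, 5 and 30 min PARP1 had 287, 497 and 694 reads there. CDK2 had 339, 478 and 452 reads, so PARP1 was highest at 30 min and CDK2 at 5 min by reads, although at 30 min by RPM, with 11.3 against 8.27. This is the window around which the region was chosen, so its PARP1 ratio at 30 min of 2.13 (widened interval 1.56 to 2.92) describes that choice. Of all compared windows, 99.7% had a lower ratio. At 5 min the PARP1 ratio was 1.65 (1.13 to 2.44), over the same 0 min count, so it also depends on that choice. The CDK2 ratio to 0 min was 1.10 (0.525 to 2.37) at 5 min. At 30 min CDK2 had 11.3 RPM against 7.51 at 0 min, and the widened interval of this ratio, 0.851 to 2.68, also includes no difference. At 0 min the window held more CDK2 than PARP1 for their depths, with 7.51 against 5.15 RPM and a ratio of 1.46 (1.03 to 2.07). At 30 min that ratio was 1.03 (0.629 to 1.67). Both CDK2 to PARP1 ratios have as divisor a PARP1 count behind the choice of region, so they depend on it too.

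The windows on either side were also high for both proteins. At 39660001 to 39670000 PARP1 had 361, 461 and 533 reads at 0, 5 and 30 min, and CDK2 had 274, 425 and 406. The ratio to 0 min at 30 min was 1.30 (0.961 to 1.76) for PARP1 and 1.67 (0.900 to 3.16) for CDK2. At 39680001 to 39690000 PARP1 had 327, 575 and 592 reads and CDK2 209, 401 and 325. There the PARP1 ratio was 1.68 (1.18 to 2.41) at 5 min and 1.59 (1.18 to 2.17) at 30 min, and the CDK2 ratio 1.498 (0.618 to 3.92) and 1.75 (0.866 to 3.65). All 3 of these neighbouring windows, the one that guided the choice of region among them, were above 0 min for both antibodies at both times. The widened PARP1 interval lay above 1 at both times in that window and at 39680001 to 39690000. At 39660001 to 39670000 it did so at neither time. Over all compared windows it did so in 2.51% at 5 min and 2.38% at 30 min. No CDK2 interval of the 3 windows lay above 1.

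The next window, 39690001 to 39700000, had the highest CDK2 level of the run at 30 min. At 0, 5 and 30 min CDK2 had 226, 232 and 456 reads, which is 5.01, 4.01 and 11.4 RPM. The ratio was 2.27 (1.20 to 4.46) at 30 over 0 min and 2.83 (1.05 to 8.44) at 30 over 5 min, both past the limit of 2. PARP1 had 237, 357 and 490 reads, with ratios to 0 min of 1.44 (0.931 to 2.24) and 1.82 (1.28 to 2.60). Both antibodies were highest here at 30 min.

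In the adjoining window 39700001 to 39710000, named after its values were seen, the antibodies parted. PARP1 had 259, 343 and 459 reads at 0, 5 and 30 min, a ratio of 1.56 (1.11 to 2.21) at 30 min. CDK2 had 289, 188 and 134 reads, with ratios of 0.508 (0.176 to 1.37) and 0.522 (0.212 to 1.19), and both CDK2 intervals include no difference. The ratio of CDK2 to PARP1 was 1.38 (0.951 to 2.01) at 0 min and 0.462 (0.193 to 0.997) at 30 min. It is the only keratin window with a CDK2 to PARP1 ratio at or under 0.5 at 30 min. Of all compared windows, 10.4% had such a ratio, so nothing is read from this count.

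Summed by position, a split made after the values were seen, the 6 windows from 39650001 to 39710000 carried most of the added PARP1 reads. Among them is the window 39670001 to 39680000, around which the region was chosen for its PARP1 reads at 30 min. Their larger PARP1 ratio therefore describes that choice in part. The 6 windows held 30.8, 45.2 and 49.5 RPM at 0, 5 and 30 min. The ratio to 0 min was 1.47 (1.26 to 1.72) and 1.61 (1.41 to 1.84), and all 6 windows were above 1 at both times. The other 9 windows, from 39710001 to 39800000, had 32.4, 40.0 and 36.8 RPM, with ratios of 1.24 (1.06 to 1.45) and 1.14 (0.993 to 1.30). For CDK2 at 30 min the ratio was 1.44 (1.11 to 1.87) in the 6 windows and 1.21 (0.915 to 1.61) in the 9, and at 5 min 1.05 (0.750 to 1.47) and 0.996 (0.696 to 1.43).

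Toward the KRT17 end the counts were mostly low. The window with the fewest reads in all, 39770001 to 39780000, had 113, 163 and 141 PARP1 reads at 0, 5 and 30 min. CDK2 had 90, 79 and 231 reads there, so the 30 min library stood apart from the other 2. The CDK2 ratio was 2.89 (1.09 to 8.81) at 30 over 0 min and 4.21 (0.853 to 33.9) at 30 over 5 min, while PARP1 had ratios of 1.38 (0.720 to 2.68) and 1.10 (0.618 to 1.97) to 0 min. The CDK2 to PARP1 ratio at 30 min was 2.59 (1.08 to 6.57), the highest of the 15.

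At 39780001 to 39790000 it was PARP1 at 5 min that stood out. Its reads were 129, 332 and 229 at 0, 5 and 30 min, a ratio of 2.45 (1.44 to 4.33) at 5 min and of 1.56 (0.956 to 2.60) at 30 min. CDK2 had 134, 130 and 134 reads, with ratios of 0.757 (0.185 to 3.08) and 1.13 (0.403 to 3.14). The CDK2 to PARP1 ratio at 5 min was 0.396 (0.0984 to 1.29). A second window with a high PARP1 ratio at 5 min, named after its values were seen, was 39730001 to 39740000, with 158, 324 and 285 PARP1 reads and ratios to 0 min of 1.96 (1.19 to 3.30) and 1.59 (1.02 to 2.50).

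Of the remaining windows, 39650001 to 39660000 had PARP1 ratios to 0 min of 1.60 and 1.35 at 5 and 30 min, and 39760001 to 39770000 had 1.17 and 1.47. From 39710001 to 39730000 the PARP1 ratios at 30 min were 0.928 and 0.987, and from 39740001 to 39760000 they were 1.00 and 1.08. At 39750001 to 39760000 PARP1 had 263, 165 and 324 reads, so that 5 min was the lowest of the 3 times, with a ratio of 0.598 (0.351 to 1.003) to 0 min and of 1.81 (1.10 to 3.06) for 30 over 5 min. At the outer end, 39790001 to 39800000 had PARP1 ratios of 1.00 and 1.14 at 5 and 30 min. Just outside the rule, the window 39640001 to 39650000 on the KRT36 side had 1.17 (0.788 to 1.74) and 1.41 (1.02 to 1.94). On the other side, 39800001 to 39810000 had 1.59 (1.08 to 2.36) and 1.10 (0.774 to 1.58). Each of these had an interval above 1 at 1 of the times, so the higher PARP1 ratios did not end at the edges of the region.

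**Figure D3:**
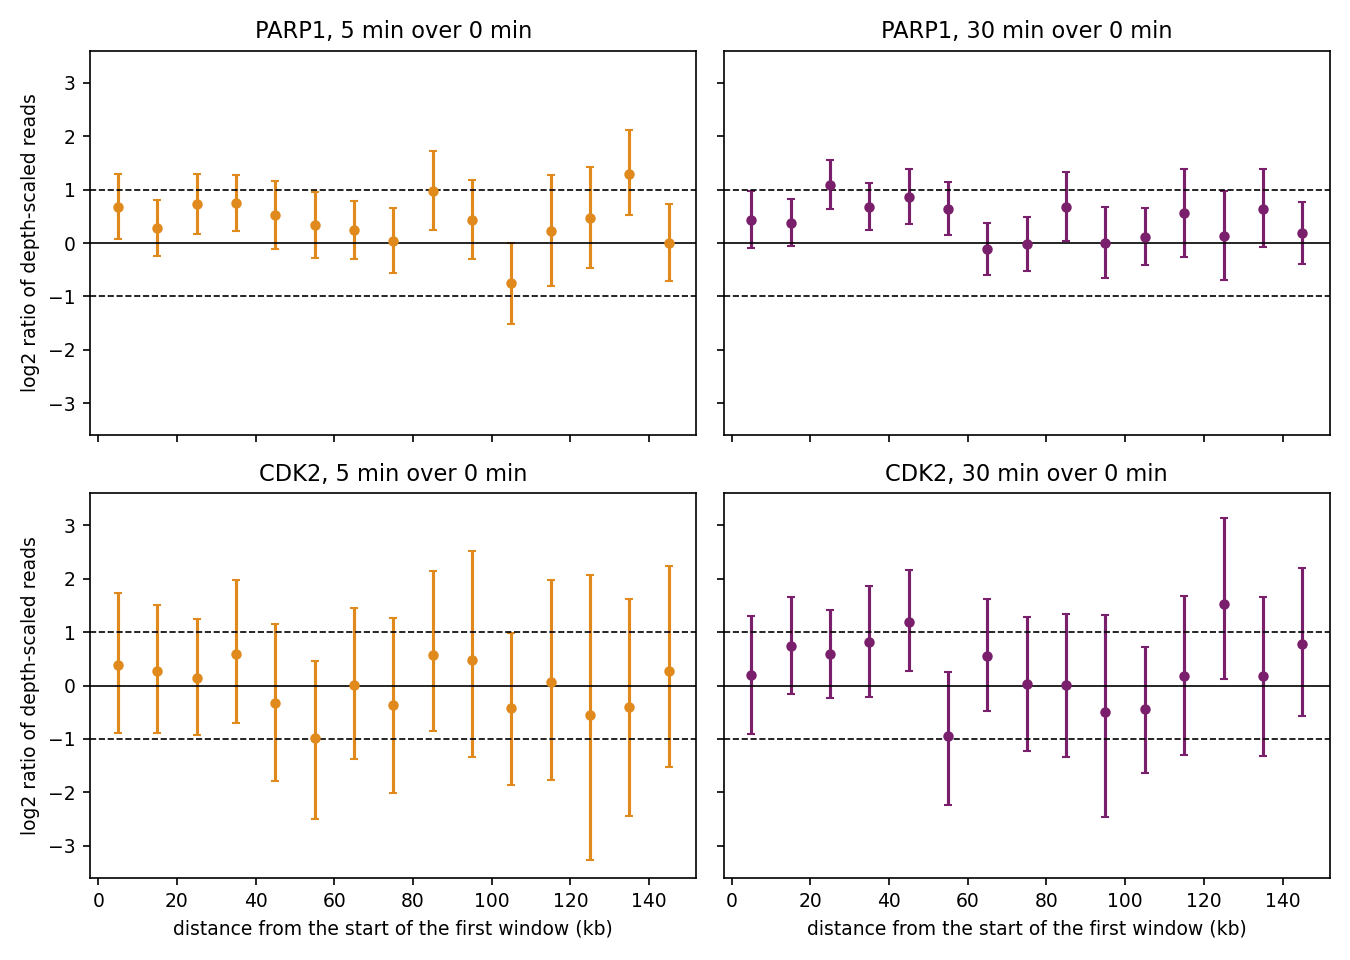
Log2 ratio of depth-scaled reads to 0 min in each of the 15 keratin windows, for PARP1 (top) and CDK2 (bottom) at 5 min (left) and 30 min (right), with widened 95% intervals and dashed lines at the limits of 2 and 0.5. The interval lies above 0 in 5 PARP1 windows at 5 min and in 5 at 30 min, in 0 CDK2 windows at 5 min and in 2 at 30 min.

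The widened interval of the ratio to 0 min lay above 1 for PARP1 in 5 of the 15 windows at 5 min, against 5 of the 85 other cluster windows and 2.51% of all compared windows. At 30 min, the contrast behind the choice of region, it did so in 5 of the 15, against 8 of the 85 and 2.38% of all. For CDK2 it did so in 0 of the 15 at 5 min, against 1 of the 85 and 0.705% of all, and in 2 of the 15 at 30 min, against 1 of the 85 and 1.67% of all. The PARP1 count at 5 min includes the window that guided the choice of region and uses the same 0 min library.

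Counted over the 15 windows, few were past the limits of a ratio of at least 2 or at most 0.5. For PARP1 it was 1 window at 30 over 0 min, where 1.09% of all compared windows were past the limits, and 1 at 5 over 0 min, where 2.73% were. Between 30 and 5 min it was 0 keratin windows, against 2.2% of all. For CDK2 it was 2 windows at 30 over 0 min against 17.1% of all, 0 at 5 over 0 min against 22.5%, and 2 at 30 over 5 min against 33.7%. The PARP1 counts rest on 1 window each, at 30 min the one that guided the choice of region, and nothing is read from the CDK2 counts. In the 85 other cluster windows 0 were past the limits for PARP1 in any of its 3 comparisons, and 8, 16 and 19 were for CDK2 at 30 over 0, 5 over 0 and 30 over 5 min.

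The set was also described by its medians, with the window that guided the choice of region among its members. For PARP1 the median ratio to 0 min over the 15 windows was 1.35 at 5 min and 1.35 at 30 min, with 14 and 13 of the 15 above 1. Over all compared windows the median was 0.991 and 0.996, with 48.6% and 49.3% above 1. The 85 other cluster windows had medians of 1.05 and 1.10, with 50 and 58 above 1. For CDK2 the keratin median was 1.04 at 5 min and 1.15 at 30 min, against 0.955 and 0.962 over all compared windows. Of the 15 windows 9 and 12 were above 1, against 33 and 36 of the 85 and 46.5% and 46.7% of all compared windows. Both antibodies were above their 0 min level in 9 of the 15 windows at 5 min and in 10 at 30 min, and both below it in 1 and 0. Both were above it in 20 and 24 of the 85 other cluster windows, and in 22.0% and 25.6% of 278378 compared windows with reads in both 0 min libraries. Both were below it in 22 and 15 of the 85, and in 26.9% and 29.6% of those compared windows. The Spearman correlation of the PARP1 and CDK2 ratios was 0.311 at 5 min and 0.239 at 30 min over the 15 windows, 0.0799 and 0.0567 over the 85, and -0.0313 and 0.145 over the compared windows.

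**Figure D4:**
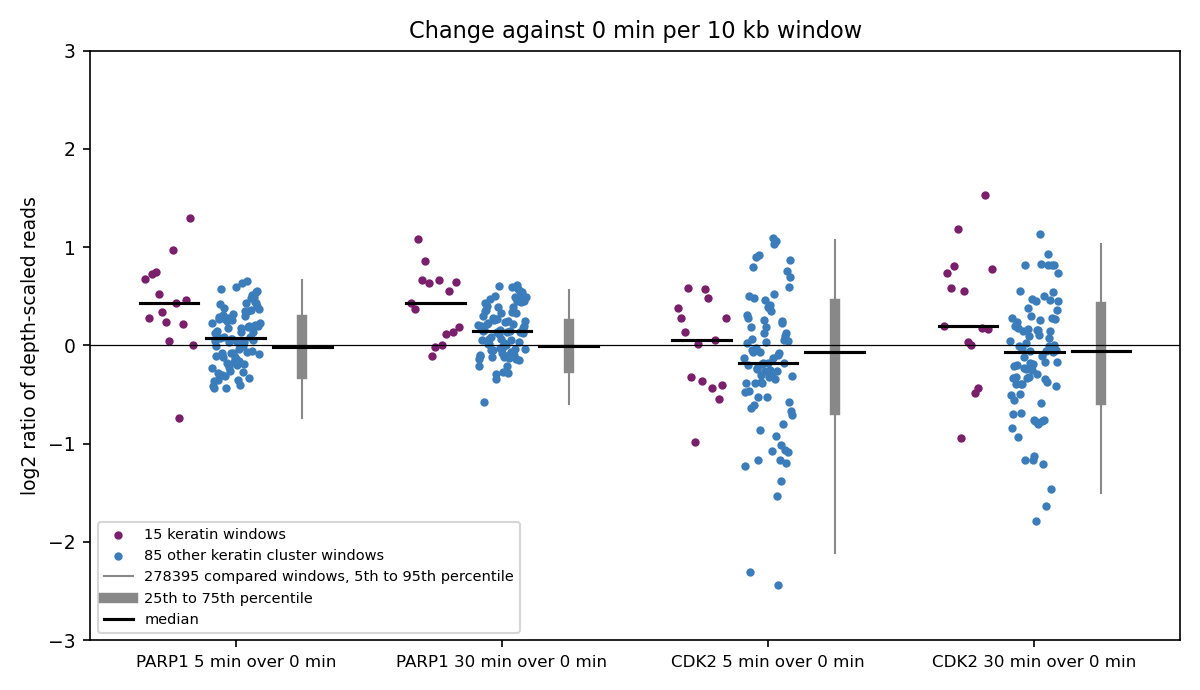
Log2 ratio to 0 min per 10 kb window for PARP1 and CDK2 at 5 and 30 min, with points for the 15 keratin windows and the 85 other keratin cluster windows, black bars for medians and grey bars for percentiles of all compared windows. The keratin median for PARP1 is a ratio of 1.35 at both times, above those of the other 2 sets, and 1 of the other cluster windows lies below the axis for CDK2 at 5 min.

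A last comparison took CDK2 over PARP1 within each time. Such a ratio depends on how well each antibody works and describes the distribution of reads only. Summed over the keratin windows the CDK2 to PARP1 ratio was 1.05 (0.944 to 1.16) at 0 min, 0.795 (0.628 to 1.01) at 5 min and 1.02 (0.864 to 1.21) at 30 min. In the other cluster windows it was 1.01 (0.971 to 1.05), 0.903 (0.822 to 0.991) and 0.902 (0.840 to 0.969). The keratin ratio was below 1 in 7, 12 and 8 of the 15 windows at 0, 5 and 30 min, against 40, 53 and 57 of the 85 and 50.6%, 53.2% and 53.3% of all compared windows. Past the limits were 0 keratin windows at 0 min against 1.33% of all compared windows, 2 at 5 min against 25.1%, both lower for CDK2, and 2 at 30 min against 14.3%, 1 in each direction.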

How the data were processed

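The authors deposited whole-number read counts in consecutive 10 kb windows of hg19, without normalization, 1 column per library. Per the submitters' processing notes, Bowtie 1.0.0 and the build hg19 (GRCh37) were used for alignment. The sources used here do not state how duplicates and reads with several matches were treated. Columns were matched to samples by title. Each library was scaled by its total over all windows. Intervals of ratios are exact binomial (Clopper-Pearson) 95% intervals after division of the counts by a dispersion, the robust variance of a window's share of reads around that of 20 windows on each side. The dispersion holds duplicate reads as well as real local differences, but not shifts shared by neighbouring windows. It was checked on simulated data without such shifts. With 1 library per antibody and time no test was made, and counting intervals and the minimum mean of 10 reads are stated with the values.

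The region and the lists were chosen with earlier results of these data known. Windows described in full are those with the most and the fewest reads, those beside the former, and those past a ratio of 2 or 0.5 between times. Alternatives were TMM factors (edgeR 4.0.16), median-of-ratios size factors (DESeq2 1.42.0), both used for scaling only, scaling on the other keratin cluster windows or on chromosome 17, thinning, other limits and fewer windows. Python 3.11.15, numpy 2.4.6, scipy 1.17.1, pandas 2.3.3, matplotlib 3.10.9 and R 4.3.3 were used. Protein sequences, and the promoters of KRT13, KRT15, KRT19, KRT14, KRT16 and KRT17, were not used here.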

Additional observations from a re-analysis of the deposited data

How the results depend on the processing

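With 1 library per antibody and time, no replicate could be left out. No paired analysis was possible because no group had a second sample. The direction of each summed ratio to 0 min was kept under TMM, median-of-ratios and both regional scalings. All 54 ratios of described windows stayed within their counting intervals under TMM, median-of-ratios, scaling on the other cluster windows and thinning. Scaled on the other keratin cluster windows, the summed PARP1 ratio was 1.23 at 30 min and 1.26 at 5 min, and the CDK2 to PARP1 ratio 0.881 at 5 min and 1.13 at 30 min. Scaled on chromosome 17, chosen after seeing the data, PARP1 had 1.29 at 30 min and 1.24 at 5 min, CDK2 1.19 at 30 over 0 min and 1.13 at 30 over 5 min, and CDK2 to PARP1 0.889 at 5 min and 0.960 at 30 min, the last now below 1. Without the window 39670001 to 39680000 PARP1 at 30 min had 1.30.

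Without that window the sums in RPM at 0, 5 and 30 min were 57.99, 76.7 and 75.4 for PARP1 and 58.7, 59.5 and 77.0 for CDK2. Without the last window, also chosen after seeing the data, they were 59.2, 81.3 and 81.9 for PARP1 and 63.4, 64.4 and 83.5 for CDK2.

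Scaled on the other keratin cluster windows, 0 windows were past the limits for PARP1 at 30 min, and 1 for CDK2 to PARP1 at both 5 and 30 min. TMM and median-of-ratios factors also left 1 for CDK2 to PARP1 at 5 min. With a limit of 1.5, PARP1 had 6 windows at 5 min (5 higher, 1 lower, 16.4% of all compared windows past that limit), 6 at 30 min (6 higher, 9.63% of all) and 2 at 30 over 5 min (1 higher, 1 lower, 13.5%). CDK2 had 7 at 30 min (6 higher, 1 lower, 40.3%) and 1 at 5 min (lower, 45.5%), and CDK2 to PARP1 had 1 at 0 min (higher, 10.1%) and 5 at 5 min (5 lower, 48.4%). With a limit of 3, only CDK2 at 30 over 5 min kept a count, of 1, and the others had 0.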

Other observations

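In the rest of the keratin cluster, 3 of the 85 windows had a widened interval away from 1 for CDK2 at 30 over 5 min. The share of all compared windows with such an interval was not computed for this comparison, so nothing is read from the count. At 39050001 to 39060000 CDK2 had 440 reads at 30 min against 161 at 5 min, a ratio of 3.94 (widened interval 1.29 to 14.6). At 39450001 to 39460000 it had 330 against 96 reads, a ratio of 4.95 (1.23 to 29.9). At 39060001 to 39070000 it had 115 against 703 reads, a ratio of 0.236 (0.0508 to 0.750). All were picked for these values.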
